A study of Mus musculus with 36 samples.

Results

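The genes described here lay on opposite sides of mouse embryonic stem cells kept for 1 day without leukemia inhibitory factor (LIF) after 2 treatments that end self-renewal, 2 days of retinoic acid (RA) and 5 days without LIF. They were selected on measured values. Taking the mean of 3 libraries of day 1 without LIF as the base (high replicate 1, medium and low gate), a probe set was a member when its log2 signal lay at least 0.7 above the base in the day 2 RA mean and at least 0.7 below it in the day 5 mean without LIF, or the reverse, with no overlap between the day 2 RA and day 5 libraries. It also had to carry 1 gene symbol and reach a mean log2 signal of 5 over the 18 RNA samples. Of 14412 probe sets with 1 symbol and this mean (10311 genes), 53 were members (49 genes). The set of 34 probe sets (30 genes) higher with RA and lower at day 5 was 0.236% of the 14412. The set of 19 probe sets (19 genes) lower with RA and higher at day 5 was 0.132%. Lefty1, Stra8 and Gbx2 were left out by name, and Lefty1 was the only gene among them with a probe set that met the limits.

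The cells carried a green fluorescent reporter of Oct4 (Pou5f1), and all arms came from this Oct4:eGFP line. Control cells were collected while they still had LIF, at 1000 U per mL, and the other arms were grown without it for 1, 3 or 5 days, or without it and with 0.1 uM RA for 1 or 2 days. Fluorescence sorting split the cells into 3 Oct4 gates (high, medium, low), and the RNA of each sample went to 2 Affymetrix chips. The control arm held 3 RNA samples (2 high, 1 medium), day 1 without LIF 4 (2 high, 1 medium, 1 low), day 3, day 5 and day 1 of RA 3 each, with 1 per gate, and day 2 of RA 2 (medium and low). All cultures had been kept on mitomycin-treated fibroblast feeders before plating on gelatin, and the genotype was the same in every arm.

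As background, RA enters cells, binds nuclear receptors of the RAR family paired with RXR, and switches on genes through direct repeats of a hexamer in DNA, with Hox genes and Rarb among the known targets. LIF acts through its receptor and JAK kinases on STAT3, which helps hold mouse embryonic stem cells in self-renewal. RA drives these cells mainly toward neural and, depending on dose and culture, endoderm fates, while loss of LIF in serum lets a mixture of lineages appear.

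Some facts of the whole series bear on these values. The summed signal of 26 measured pluripotency genes was between 30695 and 35833 in control, between 19965 and 33466 at day 1 without LIF, between 19197 and 20213 at day 3, between 8203 and 8588 at day 5, between 20205 and 21897 at day 1 with RA, and 13634 and 16759 at day 2 with RA. That of 9 measured of 17 trophoblast genes was between 1029 and 1345 in control and between 6217 and 8612 at day 5, and at day 2 with RA 3087 and 4408. That of 10 measured of 20 fibroblast feeder genes was between 765 and 865 in control and between 3046 and 3134 at day 5, and at day 2 with RA 2653 and 4014. The part of these cell types in the members' values was not tested. These are bulk samples, so fewer cells of a type and less RNA per cell cannot be told apart. The 8 libraries that chose the members were scanned on 1 day. All 3 libraries of day 3 and all 3 of day 1 with RA were scanned together on another day, and the controls on 2 further days. The log2 ratio of the 3′ to the 5′ Actb probe sets on chip A was 1.33 ± 0.10 (SD, n = 3) at day 1 with RA and 0.93 ± 0.18 (SD, n = 3) at day 3, and the part of this gap in the results was not tested.

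The second high gate library of day 1 without LIF stood apart from its arm. Over the 34 members higher with RA its mean shift from the base was 0.67, against 0.61, 0.71 and 0.67 in the 3 libraries of day 1 with RA and -0.42, -0.27 and -0.35 in control. Over the 19 members lower with RA its mean shift was -0.49. The run records of the other libraries without LIF and without RA carry a mark for no RA. That of this library carries none, and neither do those of the 3 controls. This library was scanned on the same day as control high replicate 2, and the rest of its arm on another day. The part of scan day in its position was not tested. This library was set aside, being used neither for the base nor for the tests, and counts that include it are given with the alternatives.

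The values that chose the members are a description only. On the RA side the 34 members lay between 0.70 and 2.81 above the base at day 2 (median 0.99), and at day 5 between 0.71 and 2.15 below it (day 5 minus base, median -0.99). The 19 others lay between 0.70 and 2.79 below the base at day 2 with RA (median -1.01) and between 0.72 and 2.29 above it at day 5 (median 0.91). All these are differences in log2 signal. The base had itself lost LIF for 1 day. Against the control mean, 27 of the 34 and 18 of the 19 had day 2 with RA and day 5 on opposite sides, and 13 and 9 by at least 0.7 both ways. Cnn1 lay above control at both (0.58 at day 5 and 3.42 at day 2 with RA), and Catsperz (-3.10 and -0.74) and Wdr35 (-0.82 and -2.44) lay below it at both. Members were dimmer than the other eligible probe sets, with a median log2 signal of 6.20 against 7.09. Another 21 probe sets met the limits on shift and overlap but not the minimum mean, as 74 did so without it.

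**Figure D1:**
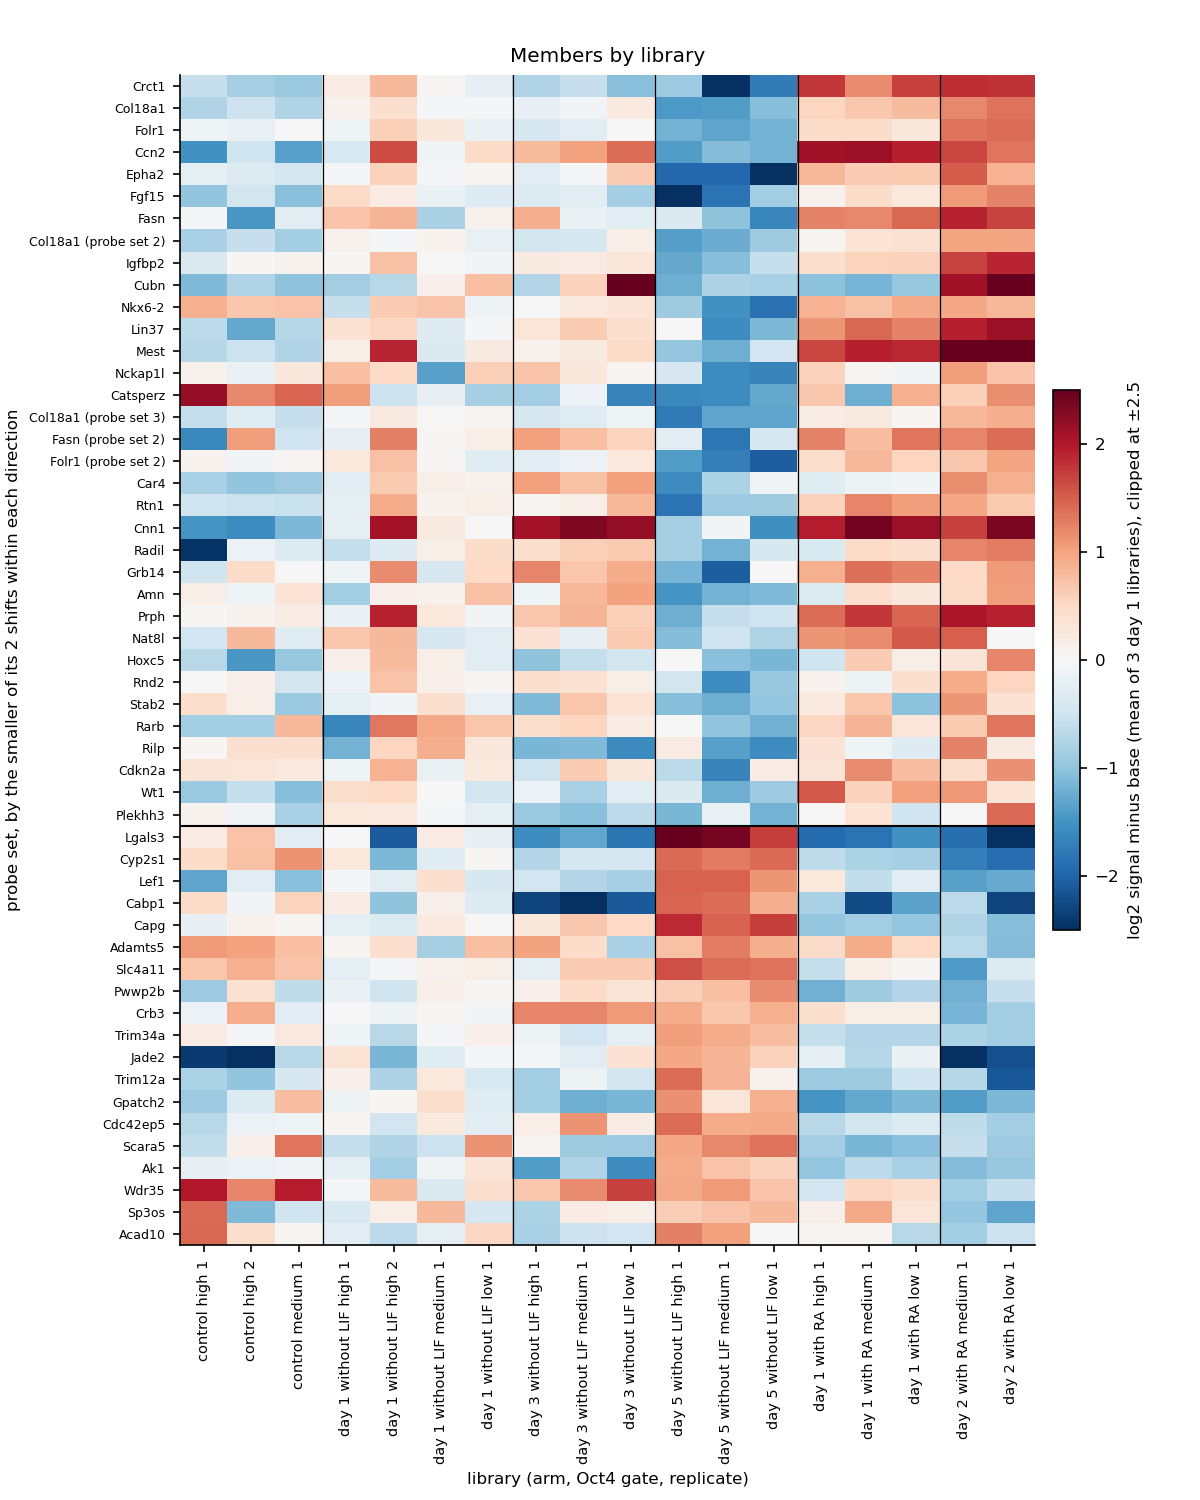
Each row is 1 of the 53 member probe sets and each column 1 of the 18 RNA samples, coloured by log2 signal minus the base mean. The day 2 RA and day 5 columns are opposite by choice. The day 3 columns, which chose nothing, mix both colours, and the second high gate library of day 1 without LIF looks more like the RA columns than like its own arm.

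The limit of 0.7 cut through a dense range of values. Just inside it were Plekhh3, with a smaller shift of 0.70, and the transcription factor gene Wt1, with 0.71. Just outside were Meioc, with 0.689, and Lcn11, with 0.686. On the other side Acad10 (0.70) and Sp3os (0.72) were inside, and Misp (0.6994) and Nktr (0.6989) were outside. With a limit of 1.0 only 6 and 4 probe sets remained, Crct1, Col18a1, Folr1, Ccn2, Epha2, Fgf15 and Lgals3, Cyp2s1, Lef1, Cabp1.

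Libraries that the rule did not use allowed 3 questions: whether day 1 with RA differed from day 3 without LIF in the direction of the choice, and whether each of these arms differed from control. The members higher with RA stood at -0.42 to -0.27 in control, 0.03 to 0.29 at day 3 without LIF and 0.61 to 0.71 at day 1 with RA, as mean shifts from the base. They then stood at -1.27 to -1.02 at day 5. The members lower with RA stood at -0.01 to 0.18 in control, -0.35 to -0.17 at day 3, -0.58 to -0.51 at day 1 with RA and 0.95 to 1.24 at day 5. At day 3 without LIF both sets thus lay on the RA side of control. Their opposite position at day 5 was set by the choice of members. Day 3 was left free by the choice, and it was scanned on another day than day 5.

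**Figure D2:**
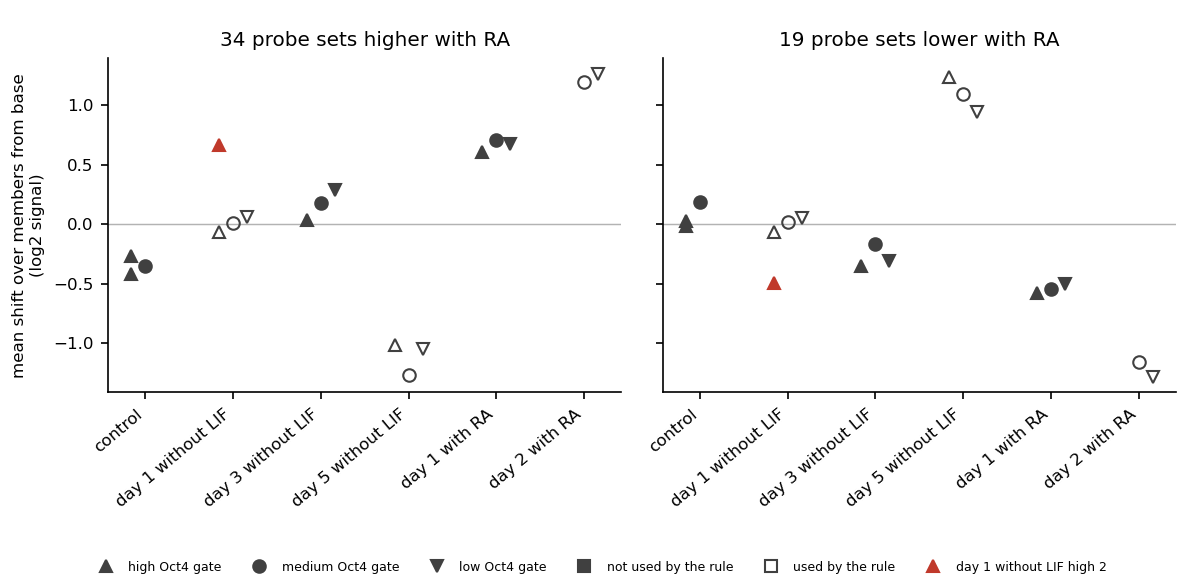
The vertical axis is the mean over members of log2 signal minus the base, for the members higher (left) and lower (right) with RA. Points are libraries, open where the rule used them, with the shape giving the Oct4 gate. The 3 day 3 libraries lie at 0.03 to 0.29 on the left and -0.35 to -0.17 on the right, between control and day 1 with RA.

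Day 1 with RA against day 3 without LIF shares no library with the rule, and both arms have 1 library per gate and the same scan day. The arms differ in RA and also in days without LIF (1 and 3), and these cannot be told apart. Of the 34 members higher with RA, 6 were called higher at day 1 with RA and 1 was called lower with limma at an adjusted p under 0.05, against 0.807% and 0.9% of all 16109 probe sets. The 6 were Crct1, Mest, Wt1, Prph, Nkx6-2 and Col18a1, and the 1 was Car4. Of the 19 members lower with RA, 1 (Capg) was called lower and 0 higher, with 5 and 2 at an unadjusted p under 0.05. For the 34 this was 21 higher and 2 lower, and over all probe sets 8.54% were higher and 11.6% lower at this p. The difference had the direction of the choice for 26 of the 34 and 13 of the 19, with medians of 0.62 and -0.28 beside -0.06 over all probe sets. The values of the 3 and 3 libraries did not overlap, in that direction, for 17 of the 34 and 6 of the 19. Over all probe sets 13.6% lay without overlap above and 17.9% below. Cubn and Car4 lay without overlap the other way.

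The count of 6 depended on which libraries were in the fit. It was 3 without any of the 3 libraries of day 3 or the 3 of day 1 with RA, 4 without control high replicate 1 or control medium, and 8 without control high replicate 2. Crct1, Mest, Wt1 and, on the other side, Capg passed the test under each of the 19 alternatives. Prph passed under 11, Col18a1 under 9 and Nkx6-2 under 8. The 19 include the fit of all 18 samples, which holds the libraries that chose the members. Leaving out the low gate library of either arm gave the same fit for this comparison, since control had no low gate.

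**Figure D3:**
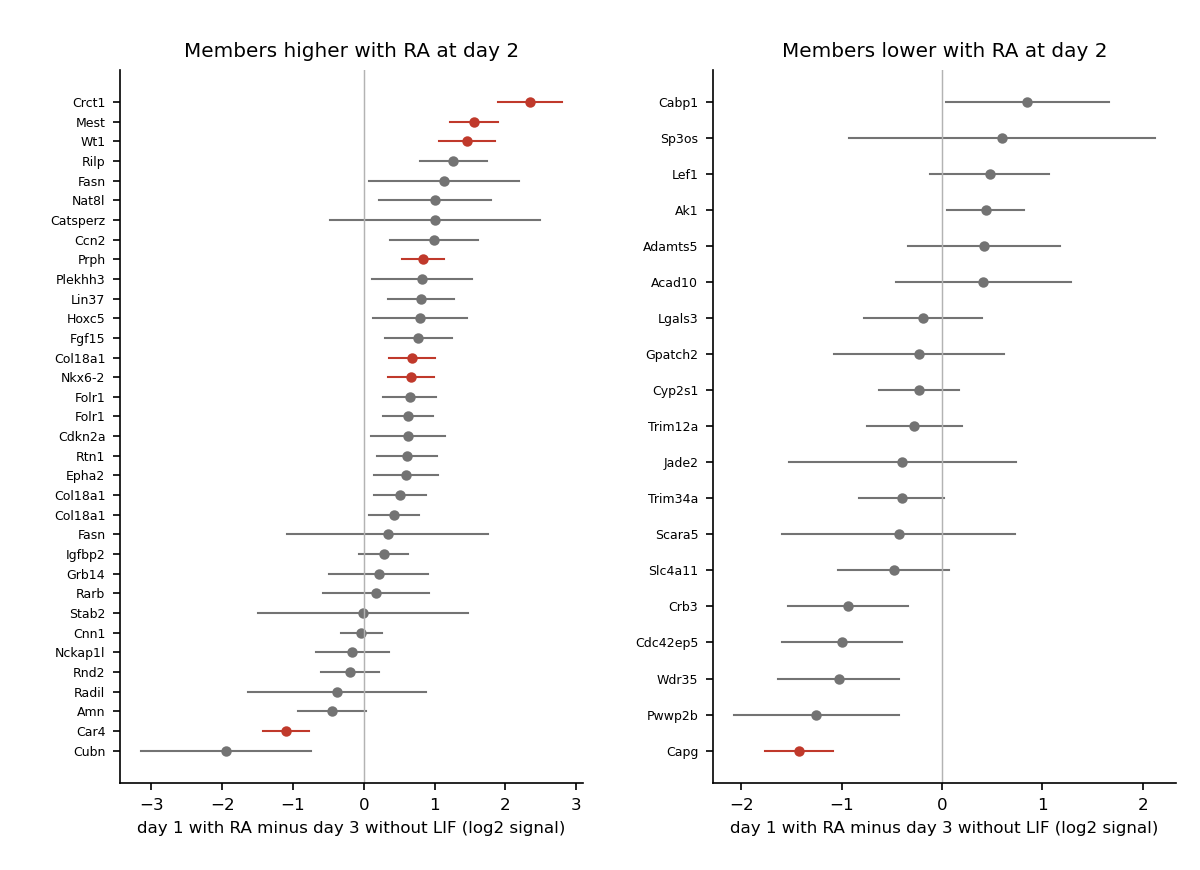
Points are the fitted difference in log2 signal between day 1 with RA and day 3 without LIF for each member, with the 95% confidence interval as a line, and red where the adjusted p is under 0.05. The members higher with RA at day 2 (left) run from Cubn at -1.95 to Crct1 at 2.35, and those lower with RA (right) from Capg at -1.42 to Cabp1 at 0.85.

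Crct1 (probe set 98518_f_at, chromosome 3), named for a cysteine-rich product, had log2 signals of 4.86, 4.60 and 4.51 in control, 5.62, 5.46 and 5.23 in the base (6.25 in the library set aside), 4.68, 4.86 and 4.39 at day 3 and 7.21, 6.61 and 7.15 at day 1 with RA. The RA values lay above all 6 others, which overlapped each other. It was 5.09-fold higher at day 1 with RA than at day 3 (log2 difference 2.35 ± 0.20 SE, limma adjusted p = 0.0015), and day 3 was 0.04 ± 0.21 from control. At day 5 it had 4.52, 2.74 and 3.69, and at day 2 with RA 7.27 and 7.25. A second Crct1 probe set, under the minimum mean, lay 0.24 above the base at day 5, so the day 5 position rests on 1 probe set. The letter f in the name of the member probe set marks probes shared with related sequences, and letters g and s mark shared probes too. Of the 53 members 7 carried f, 3 carried g, 3 carried s and 1 carried another letter, r.

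Col18a1, the basement membrane collagen whose end fragment is endostatin, was a member through 3 probe sets. The probe set ranked highest (99638_at, chromosome 10) gave 9.27, 9.51 and 9.27 in control, 10.13, 9.96 and 9.97 in the base (10.41 in the library set aside), 9.82, 9.94 and 10.26 at day 3, 10.56, 10.69 and 10.81 at day 1 with RA, 11.23 and 11.38 at day 2 and 8.59, 8.62 and 8.97 at day 5. Control, day 3, day 1 with RA and day 5 did not overlap, with day 5 lowest and day 1 with RA highest of these 4. All 3 probe sets rose from control to day 1 with RA, by 1.24 ± 0.15, 0.88 ± 0.17 and 0.63 ± 0.17 (log2, SE, limma adjusted p = 0.00145, 0.00983 and 0.0322). Against day 3 the highest ranked was 0.68 ± 0.14 higher (adjusted p = 0.0397), and a Col18a1 probe set outside the members lay 0.65 above the base at day 2 with RA and at -1.55 from it at day 5. Another, with a mean under 5, went the other way at both times (-0.58 and 0.47).

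Ccn2, a matricellular protein gene that answers TGF-beta and YAP signals, gave 5.27, 6.28 and 5.44 in control, 6.41, 6.71 and 7.24 in the base (8.42 in the library set aside), 7.59, 7.79 and 8.19 at day 3, 8.89, 8.92 and 8.73 at day 1 with RA and 8.46 and 8.13 at day 2. Day 3 and day 1 with RA lay above every control and did not overlap each other, but their difference did not pass the test (0.99 ± 0.27, limma adjusted p = 0.08). The rise over control was 2.15 ± 0.29 at day 3 (adjusted p = 0.00333) and 3.14 ± 0.29 at day 1 with RA (adjusted p = 0.000441), and at day 5 the libraries were back at 5.39, 5.70 and 5.60. Cnn1, a smooth muscle actin-binding protein gene, gave 2.85, 2.75 and 3.20 in control, 6.41, 6.67 and 6.53 at day 3, 6.29, 6.74 and 6.48 at day 1 with RA, and 3.50, 4.26 and 2.79 at day 5. It rose by 3.55 ± 0.14 at day 3 and 3.51 ± 0.14 at day 1 with RA over control (adjusted p = 1.29e-05 and 1.41e-05), and the 2 arms differed by -0.04 (95% interval -0.33 to 0.25).

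Epha2, a receptor tyrosine kinase for ephrins, gave 7.42, 7.29 and 7.20 in control, 7.60, 7.61 and 7.70 in the base (8.21 in the library set aside), 7.38, 7.59 and 8.28 at day 3, 8.47, 8.28 and 8.30 at day 1 with RA, 9.16 and 8.51 at day 2 and 5.68, 5.68 and 5.09 at day 5. The high and medium gates of day 3 lay near control and its low gate met the RA values. It rose by 0.94 ± 0.21 over control with RA (adjusted p = 0.0176), and the difference from day 3 was 0.60 ± 0.20 (adjusted p = 0.122). Igfbp2, a carrier of insulin-like growth factors, gave 9.77, 10.15 and 10.21 in control, 10.17, 10.13 and 10.06 in the base (10.85 in the library set aside), 10.34, 10.32 and 10.42 at day 3, 10.55, 10.67 and 10.70 at day 1 with RA, 11.81 and 12.03 at day 2 and 8.85, 9.05 and 9.54 at day 5. Day 1 with RA lay above every control and every day 3 library, with a rise over control of 0.55 ± 0.16 (adjusted p = 0.0448). The difference of Igfbp2 from day 3 did not pass the test (0.28 ± 0.15, limma adjusted p = 0.305). Fgf15, the growth factor gene of the ileum and embryonic nervous system, gave 5.58, 6.10 and 5.52 in control, 7.05, 6.41 and 6.24 in the base (6.77 in the library set aside), 6.22, 6.29 and 5.72 at day 3, 6.68, 7.03 and 6.82 at day 1 with RA, 7.64 and 7.80 at day 2 and 3.86, 4.71 and 5.69 at day 5. Day 1 with RA lay above control and day 3, which overlapped. It rose by 1.21 ± 0.22 over control (adjusted p = 0.00753) and was 0.77 ± 0.21 from day 3 (adjusted p = 0.0773). Of 20 measured genes of the FGF and ERK list 0 were called either way by limma between day 1 with RA and day 3 (4 higher and 4 lower at an unadjusted p under 0.05), with a median of -0.13.

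Folr1, the folate receptor, gave 8.31, 8.21 and 8.39 in control, 8.30, 8.68 and 8.24 in the base (9.01 in the library set aside), 7.99, 8.14 and 8.42 at day 3, 8.87, 8.87 and 8.68 at day 1 with RA, 9.76 and 9.80 at day 2 and 7.23, 7.09 and 7.24 at day 5. The RA libraries were above and the day 5 libraries below every control, and day 3 overlapped control. Neither of its 2 probe sets passed the test: the differences from day 3 were 0.62 ± 0.15 and 0.65 ± 0.16 (adjusted p = 0.0631 and 0.067).

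Cubn and Amn encode cubilin and amnionless, the partners in an uptake receptor of visceral endoderm, kidney and gut. Their signal varied with the Oct4 gate. Cubn gave 4.85, 5.85 and 6.47 in the high, medium and low gates of the base libraries (5.03 in the library set aside), 4.99, 6.29 and 8.59 at day 3, and 7.83 and 9.25 in the medium and low gates of day 2 with RA. In these arms the low gate was the highest and the high gate, where sampled, the lowest. At day 1 with RA the 3 gates gave 4.70, 4.56 and 4.78, beside controls at 4.63, 4.96 and 4.72 and 4.50, 4.95 and 4.92 at day 5, and the difference from day 3 ran against the choice, at -1.95 ± 0.53 (adjusted p = 0.0782). Amn gave 6.86, 7.81 and 8.44 in the base (7.84 in the library set aside), 7.59, 8.54 and 8.71 at day 3, 7.36, 8.14 and 8.00 at day 1 with RA and 8.19 and 8.75 at day 2. The high gate was lowest in each arm that had one, except that the library set aside lay above the medium gate of its arm. A second Cubn probe set, under the minimum mean, lay -0.07 from the base at day 2 with RA.

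Low against high gate was tested in the fit of control, day 3 and day 1 with RA together, in which control had no low gate. Of the 53 members 0 passed limma's test, where 0.00621% of all probe sets were called higher and 0.0% lower. At an unadjusted p under 0.05, 4 members were higher and 1 was lower, beside 2.01% and 2.14% of all probe sets. Cubn was 1.71 higher and Amn 0.77 higher in the low gate (adjusted p = 0.978 and 1). The summed signal of 17 measured extraembryonic endoderm genes, these 2 among them, was between 4421 and 5999 at day 3, between 3042 and 3399 at day 1 with RA, between 4911 and 5787 in control, 5100 and 7239 at day 2 with RA and between 6556 and 6705 at day 5. Of these 17, 0 were called higher and 1 lower at day 1 with RA against day 3, with a median of -0.54. The part of such cells in the result for Cubn and Amn was not tested.

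**Figure D4:**
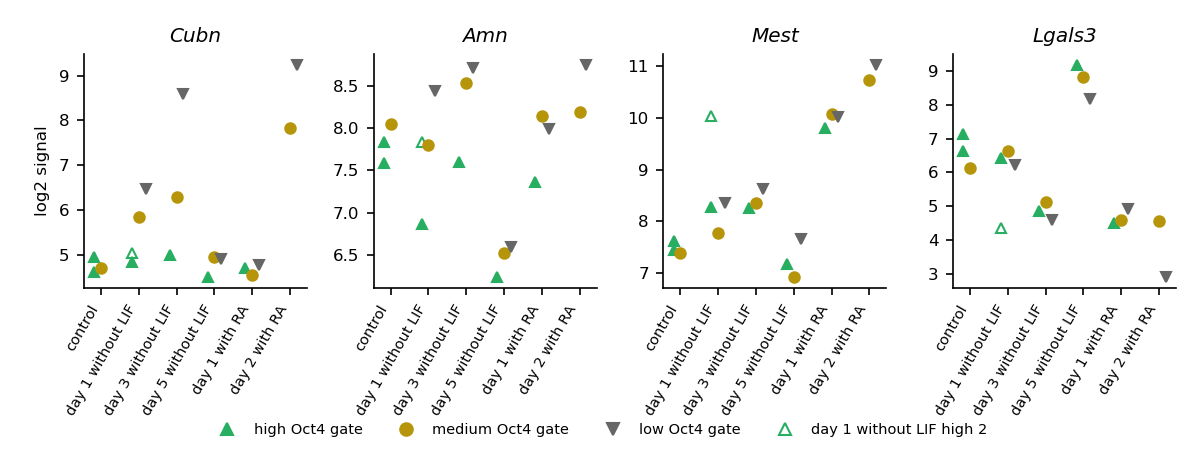
Log2 signal of 4 members in every library, by arm and Oct4 gate. In Cubn the low gate is far above the high gate at day 3 (8.59 against 4.99) while the 3 gates of day 1 with RA lie together. In Mest the arms separate instead of the gates, and in Lgals3 days 3 and 5 without LIF lie on opposite sides of control. The open triangle is the second high gate library of day 1 without LIF.

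Car4, a membrane-bound carbonic anhydrase, went against the choice at the earlier times. It gave 6.31, 6.12 and 6.22 in control, 8.14, 7.85 and 8.15 at day 3, 6.82, 7.0 and 7.04 at day 1 with RA, 8.29 and 8.00 at day 2 and 5.55, 6.33 and 7.03 at day 5. Day 3 lay above day 1 with RA in each gate, and both lay above control. It was 1.10 lower on the log2 scale at day 1 with RA than at day 3 (SE 0.14, limma adjusted p = 0.00791). Day 3 was 1.79 ± 0.15 above control (adjusted p = 0.000468). The adjusted p of day 1 with RA against day 3 was up to 0.0576 across alternatives. It missed the threshold without the high or the low gate library of either arm. Another Car4 probe set of sufficient mean gave -0.02 for day 1 with RA minus day 3, and lay 0.01 from the base at day 2 with RA and -0.13 at day 5.

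Rarb, a retinoid receptor gene and itself a known RA target, gave 4.08, 4.08 and 5.74 in control, 5.37, 5.46 and 5.12 at day 3, 5.44, 5.78 and 5.24 at day 1 with RA, 5.59 and 6.27 at day 2 and 4.93, 3.93 and 3.72 at day 5. Its base libraries ranged from 3.29 to 5.86, wider than any of these differences. It did not pass against day 3 (0.17 ± 0.32, adjusted p = 0.804) or control (0.83 ± 0.34, adjusted p = 0.189). Among the 12 measured genes of the retinoid signalling list, 2 were called higher and 0 lower at day 1 with RA against day 3, with a median of 0.63. Cyp26a1, the enzyme that breaks down RA, was 1.96 ± 0.21 higher (adjusted p = 0.00387). Hoxc5 (164559_at) gave 4.84, 5.98 and 5.51 at day 1 with RA and 4.33, 4.74 and 4.87 at day 3, a difference of 0.79 ± 0.28 (adjusted p = 0.215), and its other probe set above the minimum mean ran the other way, at -0.57. Of 12 measured Hox genes 4 were called higher and 0 lower in this comparison, with a median of 0.50.

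Wt1, a zinc-finger factor of kidney and gonad, gave 4.27, 4.59 and 4.13 in control, 5.05, 4.39 and 4.91 at day 3 and 6.73, 5.76 and 6.22 at day 1 with RA. The RA libraries lay above all others of these arms. It was 2.74-fold higher at day 1 with RA than at day 3 (log2 difference 1.45 ± 0.17, adjusted p = 0.00573). At day 5 Wt1 gave 4.83, 3.98 and 4.29, which overlapped control. It was not a member with the 3 controls or all 4 day 1 libraries as the base, with log2(signal + 16) or with quantile normalization. Nkx6-2, a homeobox gene of ventral neural progenitors and oligodendrocytes, gave 6.42, 6.20 and 6.23 in control, 4.94, 6.24 and 5.40 in the base (6.16 in the library set aside), 5.52, 5.77 and 5.86 at day 3, 6.40, 6.27 and 6.47 at day 1 with RA, 6.49 and 6.36 at day 2 and 4.64, 4.01 and 3.66 at day 5. Day 1 with RA overlapped control, and day 3 lay below both. It fell by 0.62 on the log2 scale from control to day 3 (SE 0.15, adjusted p = 0.0341) and was 0.66 ± 0.14 higher with RA than at day 3 (adjusted p = 0.044). Cdkn2a, the locus of the cell cycle inhibitor p16 and of Arf, gave 5.13, 5.99 and 5.59 with RA and 4.31, 5.45 and 5.10 at day 3, values that overlap (0.62 ± 0.23, adjusted p = 0.156). Of the 10 measured cyclin D and CDK inhibitor genes 1 was called higher and 0 lower. Lin37, a subunit of the DREAM complex that represses cell cycle genes, rose over control by 1.30 ± 0.21 at day 3 and 2.11 ± 0.21 at day 1 with RA (adjusted p = 0.0267 and 0.00548). A second, plain Lin37 probe set lay below the base in both day 2 with RA (-0.46) and day 5 (-0.49).

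Mest, a paternally expressed imprinted gene of the hydrolase family, gave 7.44, 7.61 and 7.38 in control, 8.26, 8.36 and 8.62 at day 3, 9.80, 10.08 and 10.03 at day 1 with RA, 10.74 and 11.03 at day 2 and 7.18, 6.92 and 7.66 at day 5. Control, day 3 and both RA arms did not overlap, and day 5 overlapped control. It was 2.94-fold higher at day 1 with RA than at day 3 (log2 difference 1.56 ± 0.15, adjusted p = 0.00265). From control to day 3 it rose by 0.86 ± 0.16 (adjusted p = 0.0115). Prph, the intermediate filament peripherin of peripheral neurons, gave 5.44, 5.50 and 5.60 in control, 6.09, 6.26 and 6.0 at day 3 and 6.80, 7.19 and 6.87 at day 1 with RA. The arms did not overlap, and it was 0.84 ± 0.13 higher with RA than at day 3 (adjusted p = 0.0133). This difference missed the threshold when any 1 library of these 2 arms was left out. A second Prph probe set, under the minimum mean, lay 2.83 above the base at day 2 with RA and at -0.64 from it at day 5. Its day 1 with RA minus day 3 was 0.11. Rtn1, a reticulon of neurons and neuroendocrine cells, rose by 1.31 ± 0.20 over control with RA (adjusted p = 0.0036). Fasn, which makes long-chain fatty acids, was a member through 2 probe sets. The one ranked higher gave 5.54, 4.10 and 5.28 in control, 6.28, 4.75 and 5.67 in the base (6.41 in the library set aside), 6.48, 5.39 and 5.31 at day 3, 6.81, 6.77 and 7.01 at day 1 with RA, 7.49 and 7.25 at day 2 and 5.22, 4.56 and 3.95 at day 5, and the other 6.72, 6.26 and 6.83 at day 1 with RA. Neither passed any of the 3 arm comparisons, and the control libraries of the second ranged from 3.88 to 6.53. Another Fasn probe set lay 0.90 above the base at day 2 with RA and at -0.38 from it at day 5.

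Promoter sequence was at hand for 34 of the 49 member genes, as 52 windows of 250 bases before to 50 after the annotated start (RefSeq, GRCm38.p6). The receptor hexamer AGGTCA, with A or G allowed in the first place and G or T in the third, was searched on both strands as a direct repeat with 5, 2 or 1 bases between. The repeat with 5 between, of the form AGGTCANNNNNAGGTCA, was in 1 of 30 windows of members higher with RA, that of Rarb, in 0 of 22 of members lower with RA and in 0.0974% of all 32851 windows. The repeats with 2 and 1 between were in 0 windows of members, and in 0.268% and 0.222% of all windows. The lone hexamer AGGTCA was in 16.7% and 18.2% of the windows of the members against 16.3% of all. The STAT palindrome TTCNNNGAA was in 3 of 30 and 0 of 22 against 8.3%, the octamer ATTTGCAT in 0 of both against 1.74%, CTTTGAT, read by TCF and LEF factors, in 1 of 30 (Cubn) and 0 of 22 against 3.73%, and the E2F forms TTTGGCGC and TTTCGCGC in 0 of both against 0.813%. A match is a description of letters and not of binding.

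The Rarb window is shown because it holds the only direct repeat among the members, and the others because they belong to the members ranked highest by the smaller of their 2 shifts that have a window in the table, Col18a1 (the more upstream of its 2 starts), Epha2 and Fasn for those higher with RA and Lgals3 and Cyp2s1 for those lower. Capitals mark a match to any of the motifs above. In Rarb (chr14:16575427-16575726, minus strand) the repeat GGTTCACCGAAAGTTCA begins at position -53 from the start, and the STAT palindrome found in this window, TTCACCGAA, lies inside it. In Epha2 (chr4:141300971-141301270, plus strand) the hexamer is on the opposite strand, at position -133. Col18a1 (chr10:77166481-77166780, minus strand), Fasn (chr11:120824498-120824797, minus strand), Lgals3 (chr14:47373610-47373909, plus strand) and Cyp2s1 (chr7:25816476-25816775, minus strand) hold no match. Their G and C content ran from 54.7% in Epha2 to 69.3% in Fasn, and the median of the windows of members was 60% and 58.3% against 52.7% over all windows.
Rarb: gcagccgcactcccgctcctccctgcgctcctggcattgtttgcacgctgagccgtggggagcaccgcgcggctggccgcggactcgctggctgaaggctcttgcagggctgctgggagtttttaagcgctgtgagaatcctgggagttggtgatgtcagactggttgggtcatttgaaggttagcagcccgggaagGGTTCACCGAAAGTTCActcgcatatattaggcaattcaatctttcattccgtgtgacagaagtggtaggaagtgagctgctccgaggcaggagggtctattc
Col18a1: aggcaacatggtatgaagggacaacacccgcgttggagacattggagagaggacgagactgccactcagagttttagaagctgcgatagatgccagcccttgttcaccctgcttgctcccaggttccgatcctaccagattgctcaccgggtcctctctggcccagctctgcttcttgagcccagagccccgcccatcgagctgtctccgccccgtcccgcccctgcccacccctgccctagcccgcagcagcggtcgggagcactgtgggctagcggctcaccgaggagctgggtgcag
Epha2: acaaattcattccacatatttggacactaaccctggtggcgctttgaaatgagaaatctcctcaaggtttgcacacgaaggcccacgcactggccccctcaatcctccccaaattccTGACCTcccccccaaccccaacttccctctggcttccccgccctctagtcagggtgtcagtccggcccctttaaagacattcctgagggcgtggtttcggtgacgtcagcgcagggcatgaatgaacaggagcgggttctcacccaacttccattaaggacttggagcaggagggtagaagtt
Fasn: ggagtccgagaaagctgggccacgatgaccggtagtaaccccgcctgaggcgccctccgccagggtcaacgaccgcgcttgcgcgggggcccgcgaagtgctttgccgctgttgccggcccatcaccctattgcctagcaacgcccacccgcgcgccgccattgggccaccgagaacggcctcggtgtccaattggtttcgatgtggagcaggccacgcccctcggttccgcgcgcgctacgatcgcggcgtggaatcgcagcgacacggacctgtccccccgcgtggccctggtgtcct
Lgals3: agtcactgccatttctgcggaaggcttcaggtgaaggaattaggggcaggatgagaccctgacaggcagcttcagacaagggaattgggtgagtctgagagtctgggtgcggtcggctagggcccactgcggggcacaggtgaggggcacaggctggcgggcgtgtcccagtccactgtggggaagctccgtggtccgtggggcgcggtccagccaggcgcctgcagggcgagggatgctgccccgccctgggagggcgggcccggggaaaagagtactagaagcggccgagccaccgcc
Cyp2s1: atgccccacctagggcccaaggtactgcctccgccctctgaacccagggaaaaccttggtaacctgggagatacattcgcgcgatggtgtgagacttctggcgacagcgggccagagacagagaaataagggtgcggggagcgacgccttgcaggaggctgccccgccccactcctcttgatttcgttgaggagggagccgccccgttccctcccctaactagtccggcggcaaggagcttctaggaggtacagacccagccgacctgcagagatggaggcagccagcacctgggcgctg

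Against control, 15 of the 34 members higher with RA (13 genes) were called higher at day 1 with RA and 0 lower, where 6.98% of all probe sets were called higher and 5.39% lower. At an unadjusted p under 0.05 these were 23 and 0, beside 15.2% and 13.6% of all probe sets. The 15 were Col18a1 (3 probe sets), Car4, Ccn2, Cnn1, Crct1, Epha2, Fgf15, Igfbp2, Lin37, Mest, Prph, Rtn1 and Wt1. Of the 19 members lower with RA, 7 were called lower (Lgals3, Cyp2s1, Cabp1, Capg, Slc4a11, Ak1 and Wdr35) and 0 higher, with 10 and 2 at an unadjusted p under 0.05. The controls lie on other scan days, and when scan day entered as a random block 11 and 4 were called in these directions. Without the high gate library of day 1 with RA 9 of the 34 were called. The 7 became 4 without control high replicate 1, control medium or day 3 high, and 3 without the high or the medium gate of day 1 with RA.

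At day 3 without LIF against the same controls, 7 of the 34 were called higher (Ccn2, Cnn1, Car4, Col18a1, Lin37, Mest and Prph) and 2 lower (Nkx6-2 and Rilp), where 4.26% and 3.24% of all probe sets were. Of the 19, 4 were called lower (Lgals3, Cyp2s1, Cabp1 and Ak1) and 1 higher (Crb3). The sides members take with RA at day 2 and at day 5 are set against the base. By these sides, 11 of the 14 members called at day 3 moved to the RA side and 3 to the day 5 side. Against control, Cnn1 (0.58) and Car4 (0.09) lay above at day 5 too, and Ccn2 (-0.10) and Lin37 (-0.005) lay close to it. The rest of the 11 lay across control at day 5 from day 2 with RA. When scan day entered as a random block the counts of 7, 2, 4 and 1 became 4, 1, 4 and 0. The 7 became 4 without the high or the medium gate of day 3 and 3 without control medium, the 2 became 0 or 1 without any library but control high replicate 2, and the 4 became 1 without the high gate of day 3. Both comparisons use the 3 controls, so the values are set side by side and not correlated.

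**Figure D5:**
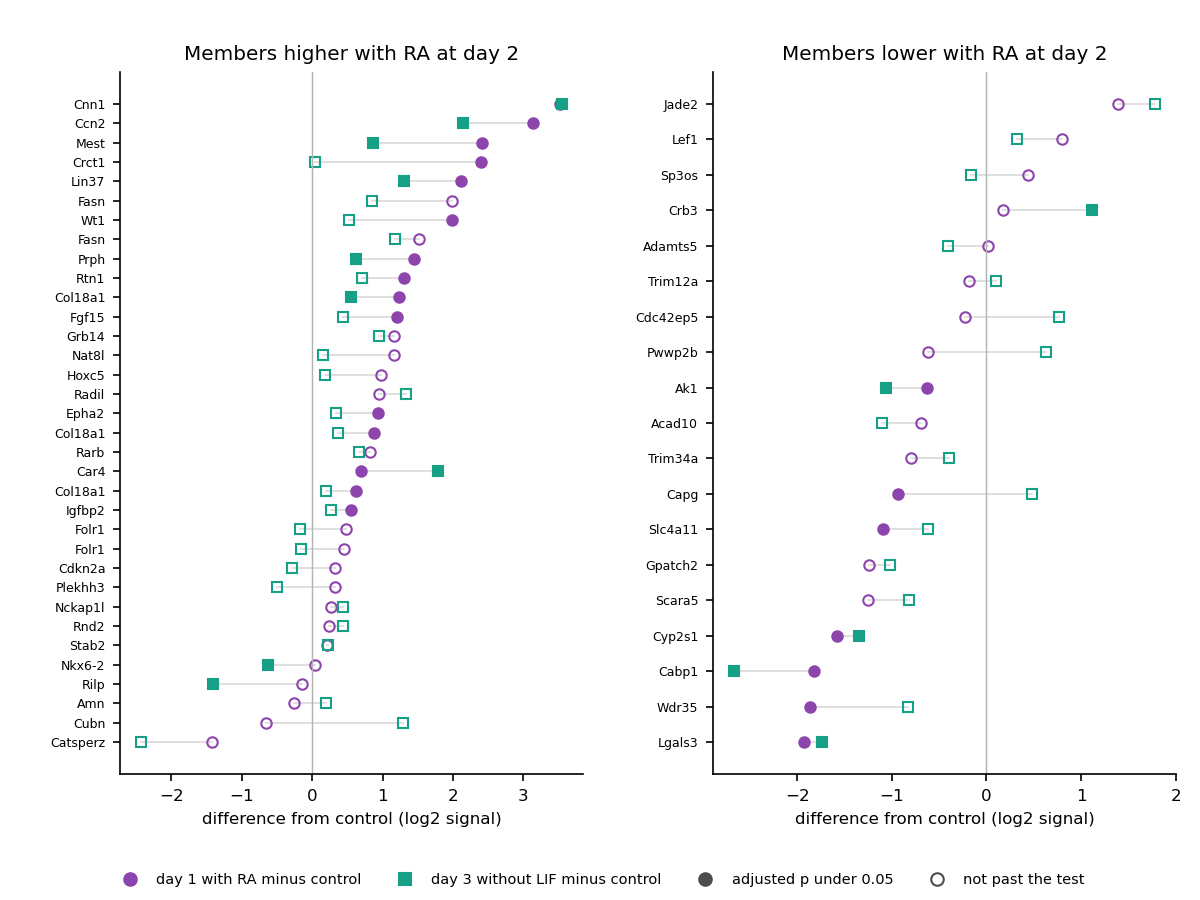
Fitted difference from control in log2 signal for each member, at day 1 with RA (circles) and day 3 without LIF (squares), filled where the adjusted p is under 0.05. Cnn1 and Ccn2 on the left and Lgals3, Cyp2s1 and Cabp1 on the right lie far from 0 in both arms on the same side.

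Among the members lower with RA, Lgals3 had the largest day 5 shift. It encodes galectin-3, a sugar-binding protein of epithelia and macrophages. It gave 6.63, 7.14 and 6.14 in control, 6.44, 6.62 and 6.22 in the base (4.35 in the library set aside), 4.87, 5.13 and 4.60 at day 3, 4.51, 4.59 and 4.92 at day 1 with RA, 4.55 and 2.89 at day 2 and 9.19, 8.81 and 8.17 at day 5. Day 3 and both RA arms lay below every control and day 5 above, so that its signal without LIF went down and then up. It fell by 1.74 on the log2 scale at day 3 (SE 0.28, limma adjusted p = 0.0066) and by 1.93 at day 1 with RA (SE 0.28, adjusted p = 0.00284) from control. Day 1 with RA and day 3 differed by -0.19 (95% interval -0.78 to 0.40).

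Cyp2s1, a cytochrome P450 of epithelia, gave 6.18, 6.44 and 6.84 in control, 5.99, 5.42 and 5.75 in the base (4.60 in the library set aside), 4.98, 5.30 and 5.31 at day 3, 5.07, 4.92 and 4.90 at day 1 with RA, 4.01 and 3.81 at day 2 and 7.13, 7.02 and 7.14 at day 5. It fell by 1.35 (SE 0.19, adjusted p = 0.0036) at day 3 and 1.58 (SE 0.19, adjusted p = 0.00124) with RA, and day 5 lay above every control. Cabp1, a neuronal calcium-binding protein gene, gave 7.76, 7.21 and 7.83 in control, 7.46, 7.40 and 6.94 in the base (6.26 in the library set aside), 4.95, 4.76 and 5.17 at day 3, 6.46, 5.03 and 5.93 at day 1 with RA, 6.61 and 4.94 at day 2 and 8.72, 8.66 and 8.17 at day 5. It was lower than control in both arms (-2.67 ± 0.37 and -1.82 ± 0.37, adjusted p = 0.0174 and 0.0355), and RA minus day 3 was 0.85 ± 0.35 (adjusted p = 0.262). Ak1, the cytosolic adenylate kinase, fell by 1.07 at day 3 and by 0.63 with RA (SE 0.18 each, adjusted p = 0.00824 and 0.0409).

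Capg, which caps actin filaments, was the member of this set whose day 3 and RA libraries were apart in the direction of the choice and past the test. It gave 6.44, 6.76 and 6.67 in control, 6.42, 6.88 and 6.63 in the base (6.29 in the library set aside), 6.92, 7.32 and 7.15 at day 3, 5.68, 5.77 and 5.67 at day 1 with RA, 5.89 and 5.58 at day 2 and 8.50, 8.11 and 8.36 at day 5. Every RA library lay below every control, and every day 3 library above. At day 1 with RA it was 1.42 lower on the log2 scale than at day 3 (SE 0.15, adjusted p = 0.00374) and 0.94 lower than control (SE 0.16, adjusted p = 0.00578). Day 3 was 0.49 ± 0.16 from control (adjusted p = 0.0832). A second Capg probe set just under the minimum mean lay at -1.75 from the base at day 2 with RA and 1.53 above it at day 5. Another Capg probe set, also just under this mean, lay 0.35 and 0.56 above the base at these times, and day 1 with RA minus day 3 was 0.16.

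Crb3, an apical polarity protein gene, gave 5.39, 6.45 and 5.25 in control, 5.53, 5.60 and 5.47 in the base (5.42 in the library set aside), 6.75, 6.76 and 6.59 at day 3, 5.93, 5.70 and 5.68 at day 1 with RA, 4.37 and 4.69 at day 2 and 6.46, 6.21 and 6.43 at day 5. Day 3 lay above every control and every library of day 1 with RA. It rose from control to day 3 by 1.11 ± 0.28 (adjusted p = 0.0377), and day 1 with RA minus day 3 was -0.93 ± 0.26 (adjusted p = 0.0852). Cdc42ep5, an effector of Cdc42, gave 8.25, 9.20 and 8.27 at day 3 and 7.38, 7.61 and 7.73 with RA, without overlap (-0.996 ± 0.25, adjusted p = 0.143). Pwwp2b, a PWWP domain protein gene, gave 6.66, 7.97 and 6.95 in control, 7.42, 7.70 and 7.61 in the base (7.09 in the library set aside), 7.70, 8.06 and 7.90 at day 3, 6.37, 6.69 and 6.84 at day 1 with RA, 6.38 and 6.99 at day 2 and 8.18, 8.33 and 8.76 at day 5. Its day 3 and day 1 RA libraries did not overlap, with control spanning the gap (-1.25 ± 0.35, adjusted p = 0.157). Slc4a11, a membrane transporter of corneal endothelium, gave 8.17, 8.36 and 8.20 in control, 7.24, 7.58 and 7.63 in the base (7.46 in the library set aside), 7.23, 8.12 and 8.13 at day 3, 6.88, 7.65 and 7.50 at day 1 with RA, 6.06 and 7.15 at day 2 and 9.10, 8.89 and 8.84 at day 5. It fell by 1.09 from control to day 1 with RA (SE 0.25, adjusted p = 0.0492). Wdr35, a component of ciliary transport, fell by 1.86 from control to day 1 with RA (SE 0.28, adjusted p = 0.0144).

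Lef1, the transcription factor that carries Wnt signals to DNA, gave 4.88, 5.94 and 5.15 in control, 6.17, 6.62 and 5.79 in the base (5.92 in the library set aside), 5.72, 5.46 and 5.38 at day 3, 6.47, 5.59 and 5.92 at day 1 with RA, 4.84 and 4.94 at day 2 and 7.67, 7.67 and 7.30 at day 5. Control, day 3 and day 1 with RA overlapped, and day 5 lay above all of them. The difference of RA from day 3 was 0.47 ± 0.26 (adjusted p = 0.321). Its 2 other probe sets had the same signs at day 2 with RA (-0.35 and -0.63) and day 5 (0.997 and 0.82). Of 28 measured Wnt pathway genes 0 were called either way by limma between day 1 with RA and day 3 (2 higher and 2 lower at an unadjusted p under 0.05), with a median of 0.01. Of 13 measured postimplantation epiblast genes, Lef1 among them, 0 were called higher and 2 lower, with a median of -0.32. Adamts5, an aggrecan-cleaving protease gene, gave 6.51, 6.46 and 6.20 in control, 5.53, 4.63 and 6.21 in the base (5.87 in the library set aside), 6.46, 5.91 and 4.64 at day 3, 5.92, 6.39 and 5.96 at day 1 with RA, 4.77 and 4.37 at day 2 and 6.19, 6.73 and 6.36 at day 5. Control, day 3 and day 1 with RA overlapped, and 2 of its 3 other probe sets of sufficient brightness did not share its signs. Trim34a, a TRIM family gene, gave 7.71, 7.48 and 7.77 in control, 7.42, 7.51 and 7.65 in the base (6.83 in the library set aside), 7.40, 7.05 and 7.28 at day 3, 6.92, 6.80 and 6.80 at day 1 with RA, 6.74 and 6.66 at day 2 and 8.57, 8.46 and 8.29 at day 5. Both RA arms lay below every day 3 library, and day 5 above every control. Trim34a and Trim12a had differences of -0.40 ± 0.18 and -0.28 ± 0.20 from day 3 (adjusted p = 0.298 and 0.492).

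The remaining members did not pass between day 1 with RA and day 3. On the higher side they were Nckap1l, Catsperz, Radil, Grb14, Nat8l, Rnd2, Stab2, Rilp and Plekhh3, with differences between -0.38 (Radil) and 1.26 (Rilp). Rilp, which links late endosomes to motors, fell by 1.41 from control to day 3 (SE 0.22, adjusted p = 0.0214), where its libraries gave 5.31, 5.35 and 4.87 against 6.51, 6.86 and 6.87. On the lower side they were Jade2, Gpatch2, Scara5, Sp3os and Acad10, with differences between -0.43 (Scara5) and 0.60 (Sp3os). Their standard errors reached 0.63 (Catsperz and Stab2) and 0.65 (Sp3os). Across the genes with further probe sets of mean at least 5, 10 of 16 probe sets (12 genes) had the signs of the member at both times, and over all further probe sets 13 of 32 (20 genes).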

How the data were processed

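Messenger RNA of 18 sorted RNA samples was amplified in 2 rounds and hybridised to 2 Affymetrix chips, 36 arrays in all, per the labels' protocols. The deposited tables hold signal intensity per probe set, which the authors computed in MAS5, as stated per the submitters' processing notes (version not given in the sources used here). They were used as deposited: the 2% trimmed mean of the intensity was 150.1 on each chip A array and 150.04 on each chip B array, so the arrays had been scaled. Detection calls were not analysed here. Run records gave only scan days and marks.

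Signals became log2(signal + 4) on chip A and log2(signal + 7) on chip B, which understates the change of low signals. Symbols came from the platform annotation. The mean of at least 5 was read as the mean over 18 samples, and RA values in the overlap limit as the 2 day 2 libraries. The members and lists were chosen with earlier results of these data known. Tests used limma 3.58.1 in R 4.3.3 (lmFit, eBayes) on 9 libraries (control, day 3 without LIF, day 1 with RA) with additive arm and gate terms, 7106 probe sets on chip A and 9003 on chip B, Benjamini-Hochberg within chip, and statmod 1.5.0 for random blocks. Differences from control are thus adjusted for gate. The code was tested on simulated data. Errors after ± are SE unless SD is written.

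Gates served as an arm's replicates, and the labels do not say that samples came from separate cultures, so p-values cover only the spread among these samples, possibly technical. Values in every library are given for the up to 10 genes per direction with the largest smaller shift, 1 probe set each. Members of the lists, those past the test against the choice, those nearest the limit and others of well known role are named with fewer values. The list genes use 1 probe set per gene, chip A first, then the brightest. The 24 lists cover signalling, lineage, cell type, stress, cell cycle and metabolic genes, and those holding a member are reported. The alternatives were pseudocounts, filters, quantile normalization, sample sets, gate term, scan day, eBayes options, leaving out libraries and other forms of the rule.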

Additional observations from a re-analysis of the deposited data

Results flagged for a closer look

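The second high gate library of day 1 without LIF lay far from the other 3 of its arm in the mean of the 34 members higher with RA, at 0.67 above the base, and in Igfbp2, at a log2 signal of 10.85 against 10.06 to 10.17. Such a gap was looked for in 22 quantities of this arm of 4 and seen in 2. Chance gives about 1 in 20 for independent quantities. These quantities overlap, and the other 3 libraries were the base that chose the members. The count of 2 therefore cannot be set against that rate. The same 0.67, in a library outside the comparisons, lay above the 3 controls (-0.42 to -0.27).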

How the results depend on the processing

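With the limit at 0.5 the rule gave 84 and 65 probe sets, and at 1.0 it gave 6 and 4. The lower set held 29 with medium and low gates only and 30 with no brightness minimum. Day 2 with RA had no high gate, unlike the base and day 5. With medium and low gates only, 23 of the 34 and 14 of the 19 remained, and Amn, Car4, Nkx6-2, Prph and Rarb were among those lost. With log2(signal + 16) 22 and 12 remained, and with quantile normalization 24 and 13. With 3 controls as the base 13 and 9 of the 34 and 19 remained, and with all 4 day 1 libraries 23 and 14. Of day 1 with RA against day 3, 275 probe sets were called, 93 with no filter, 577 with all 18 samples (the doubted library included), 597 with no gate term, 448 with a random block for scan day, 586 with trend and robust eBayes. Without 1 library this was 43 to 488. The fit of all 18 samples also holds the 8 libraries that chose the members, so its member counts are not independent of the choice. The 6 members called higher became 3 with no filter, 11 with no gate term and 10 with scan day or with trend and robust, and 3 to 8 without 1 library. The 1 called lower among them was 2 with all 18 samples, and 0 to 1 without 1 library. The 1 called lower in the other set was 3 with all 18 samples and 2 with scan day or the 6 libraries compared, and 1 to 2 without 1 library. With no filter the share of higher calls was 60.2% against 47.3%. Day 1 with RA against control gave 1993 calls, 1249 with no filter, 3184 with no gate term, 912 with scan day and 559 to 2255 without 1 library. Day 3 against control gave 1208, 654, 2044, 437 and 202 to 1509 in the same order. The 1 gate call was 0 with log2(signal + 16), no filter, quantile normalization, the 6 libraries, all 18 samples, trend and robust, and without any 1 library. Of 380 values for 20 named members, 335 kept sign and side of the threshold, 21 lost it, 20 passed it and 4 changed sign: Lgals3 (-0.449 to 0.0841 without 1 library, at 0.0841 without day 3 medium and 0.0153 without day 1 RA high) and Adamts5 (-0.0306 to 0.827, at -0.0306 without the low gate of day 3 or of day 1 with RA). Control had no low gate, so leaving out either low gate library takes both out of day 1 with RA against day 3. These 2 settings were the same fit for that comparison, and the 2 sign changes of Adamts5 are 1 result. The causes of the changes between settings were not tested. No paired analysis was possible because the groups share fewer than 2 replicate numbers by which to pair. The gate term matched libraries by gate: day 1 with RA minus day 3 had the direction of the choice in all 3 gates for 24 of the 34 and 10 of the 19. Signals near the minimum mean limit the dimmest members.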
